A study of Mus musculus with 45 samples.

Results

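The 10 genes described here are the mouse genes for p53 (*Trp53*), its inhibitor *Mdm2*, the cyclin-dependent kinase (CDK) inhibitors *Cdkn1a*, *Cdkn1b*, *Cdkn1c*, *Cdkn2a*, *Cdkn2b* and *Cdkn2c*, and the atypical cyclins *Ccng1* and *Ccng2*, out of 54838 genes in the deposited count table. They were chosen by name as cell cycle brakes and members of the p53 axis, after *Ccng2* was seen to differ between lines derived from the parental lines YEJG and YEJH. That difference between derived lines is therefore given as a description, with no test. RNA was sequenced from 15 *PyMT*+ mouse mammary tumour cell lines, each in 3 libraries labelled as repeats, which gave 45 libraries. In the MMTV-*PyMT* model the mammary tumour virus promoter drives polyomavirus middle T antigen in mammary epithelium, and all 15 lines carry it, parental lines included. YEJG and YEJH are labelled as primary tumour lines of the mammary gland. Lines with FP in their name came from fat-pad tumours (YEJG-FP, and YEJH-FP1 to YEJH-FP5), and lines with M in their name came from the lung (YEJG-M1, YEJG-M2, and YEJH-M1 to YEJH-M5). YEJH-M3 is labelled as lung metastases and the other M lines as whole lung. Each line was plated for 24 hours without treatment before lysis, and the labels give no age, strain or other allele for the mice of origin. A parental line, and the only YEJG fat-pad line, is a group of 1 line, so its spread was taken from the other groups. The labels do not say that the 3 libraries of a line were separate cultures, so the line was the unit of replication.

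p53 is a transcription factor that accumulates after DNA damage and other stress and switches on genes for arrest, repair and cell death. *Mdm2* is both a p53 target and the ubiquitin ligase that marks p53 for destruction, which closes a negative feedback loop. The CDK inhibitors fall into a Cip/Kip family (p21, p27 and p57, from *Cdkn1a*, *Cdkn1b* and *Cdkn1c*), which binds cyclin-CDK complexes, and an INK4 family, which binds CDK4 and CDK6. *Cdkn2a* encodes both p16INK4a and p19ARF, and p19ARF restrains MDM2. *Ccng1* is a classical p53 target, whereas *Ccng2* is best known as a cyclin of quiescent cells that FoxO factors switch on.

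Promoter sequences are shown for *Ccng2*, the gene that led to the choice of members, and for *Mdm2*, *Cdkn1a* and *Ccng1*, whose levels followed each other across the lines. They are the 250 bases before the transcription start in RefSeq on GRCm38.p6, written 5′ to 3′ on the strand of the gene. Of the 10 members, 9 had a promoter in that table, 12 promoters in all, and *Cdkn1c* had none. Capitals mark a match to the p53 consensus of 20 bases with abutting half-sites and at most 1 mismatch, or the FoxO-type motif GTAAACA on either strand. The stretches are chr5:93267323-93267572 on the + strand for *Ccng2*, chr10:117710759-117711008 on the - strand for *Mdm2*, chr17:29090729-29090978 on the + strand for the upstream start of *Cdkn1a*, and chr11:40755287-40755536 on the - strand for *Ccng1*.
Ccng2: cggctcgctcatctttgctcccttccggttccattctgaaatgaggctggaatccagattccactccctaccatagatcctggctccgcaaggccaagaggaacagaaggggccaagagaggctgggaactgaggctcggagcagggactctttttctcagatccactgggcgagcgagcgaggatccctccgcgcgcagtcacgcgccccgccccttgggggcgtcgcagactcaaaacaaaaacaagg
Mdm2: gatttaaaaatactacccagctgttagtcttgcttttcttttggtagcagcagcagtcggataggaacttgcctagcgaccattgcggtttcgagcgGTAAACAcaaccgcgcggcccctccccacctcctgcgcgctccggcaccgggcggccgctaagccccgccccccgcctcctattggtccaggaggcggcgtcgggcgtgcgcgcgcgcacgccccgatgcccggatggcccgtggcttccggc
Cdkn1a: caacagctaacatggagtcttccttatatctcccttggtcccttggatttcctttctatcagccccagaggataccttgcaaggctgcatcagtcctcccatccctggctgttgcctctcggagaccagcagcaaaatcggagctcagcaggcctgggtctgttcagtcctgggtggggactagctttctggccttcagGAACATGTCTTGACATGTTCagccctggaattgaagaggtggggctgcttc
Ccng1: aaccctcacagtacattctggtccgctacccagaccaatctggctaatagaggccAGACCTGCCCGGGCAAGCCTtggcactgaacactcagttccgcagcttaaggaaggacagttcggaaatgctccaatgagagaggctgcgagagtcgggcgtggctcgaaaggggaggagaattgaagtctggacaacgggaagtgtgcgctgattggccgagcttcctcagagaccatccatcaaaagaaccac
The p53-type match began 51 bases before the start in *Cdkn1a* and 195 bases before it in *Ccng1*, each with 1 mismatch. Such a match was present in 25 (0.0761%) of 32851 promoters of the same length, and in 0 of the other 10 promoters of members. GTAAACA was present in 1040 (3.17%) of the 32851 promoters. Among members it lay only in the *Mdm2* promoter, 153 bases before the start. The *Ccng2* window held neither motif. For every promoter without a match, that of *Mdm2* for p53 included, this says only that the letters are not in the 250 bases searched.

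The libraries held from 9723860 to 16943900 reads on genes, and 17110 genes passed the expression filter. Levels are given as CPM, the usual count scaled to library size, here after TMM normalisation, as the mean of the 3 libraries of a line. Of the 10 members, 9 passed the filter. *Cdkn1c* had 0 reads in all 45 libraries, which allows a level of up to 0.309 CPM in the shallowest library by counting error alone. Its exons share bases with the antisense gene *Gm44732*, and any reads set aside there as ambiguous are outside this limit. The library names carry a pair of prefixes, called set A and set B here, and every line had libraries in both, though not in equal numbers. The parental line YEJG had repeats 1 and 3 in set A and repeat 2 in set B. The parental line YEJH had repeat 2 in set A and repeats 1 and 3 in set B. Reads set aside for low alignment quality were 0 in set B libraries and above 0 in set A libraries. YEJH-M3 repeat 2 had the largest share of reads outside genes (43.3%, against at least 31.64% in every library). One library labelled YEJG-M1 has YEJH_M1 in its library name, yet its log2 levels correlated across genes at r = 0.979 with the other YEJG-M1 libraries and at 0.925 with YEJH-M1, so its title was kept. Luminal epithelial markers were present in every line (*Krt8* from 1360 to 3520 CPM, *Krt18* from 1030 to 2700 CPM, *Epcam* from 127 to 742 CPM), whereas *Elf5* and *Pgr* were at or near 0. Of the basal markers, *Krt14* was present in every line, at 130 to 1370 CPM. The basal markers *Krt5* and *Trp63* were at or near 0, and *Acta2* ran from 0 to 6.46 CPM.

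**Figure D1:**
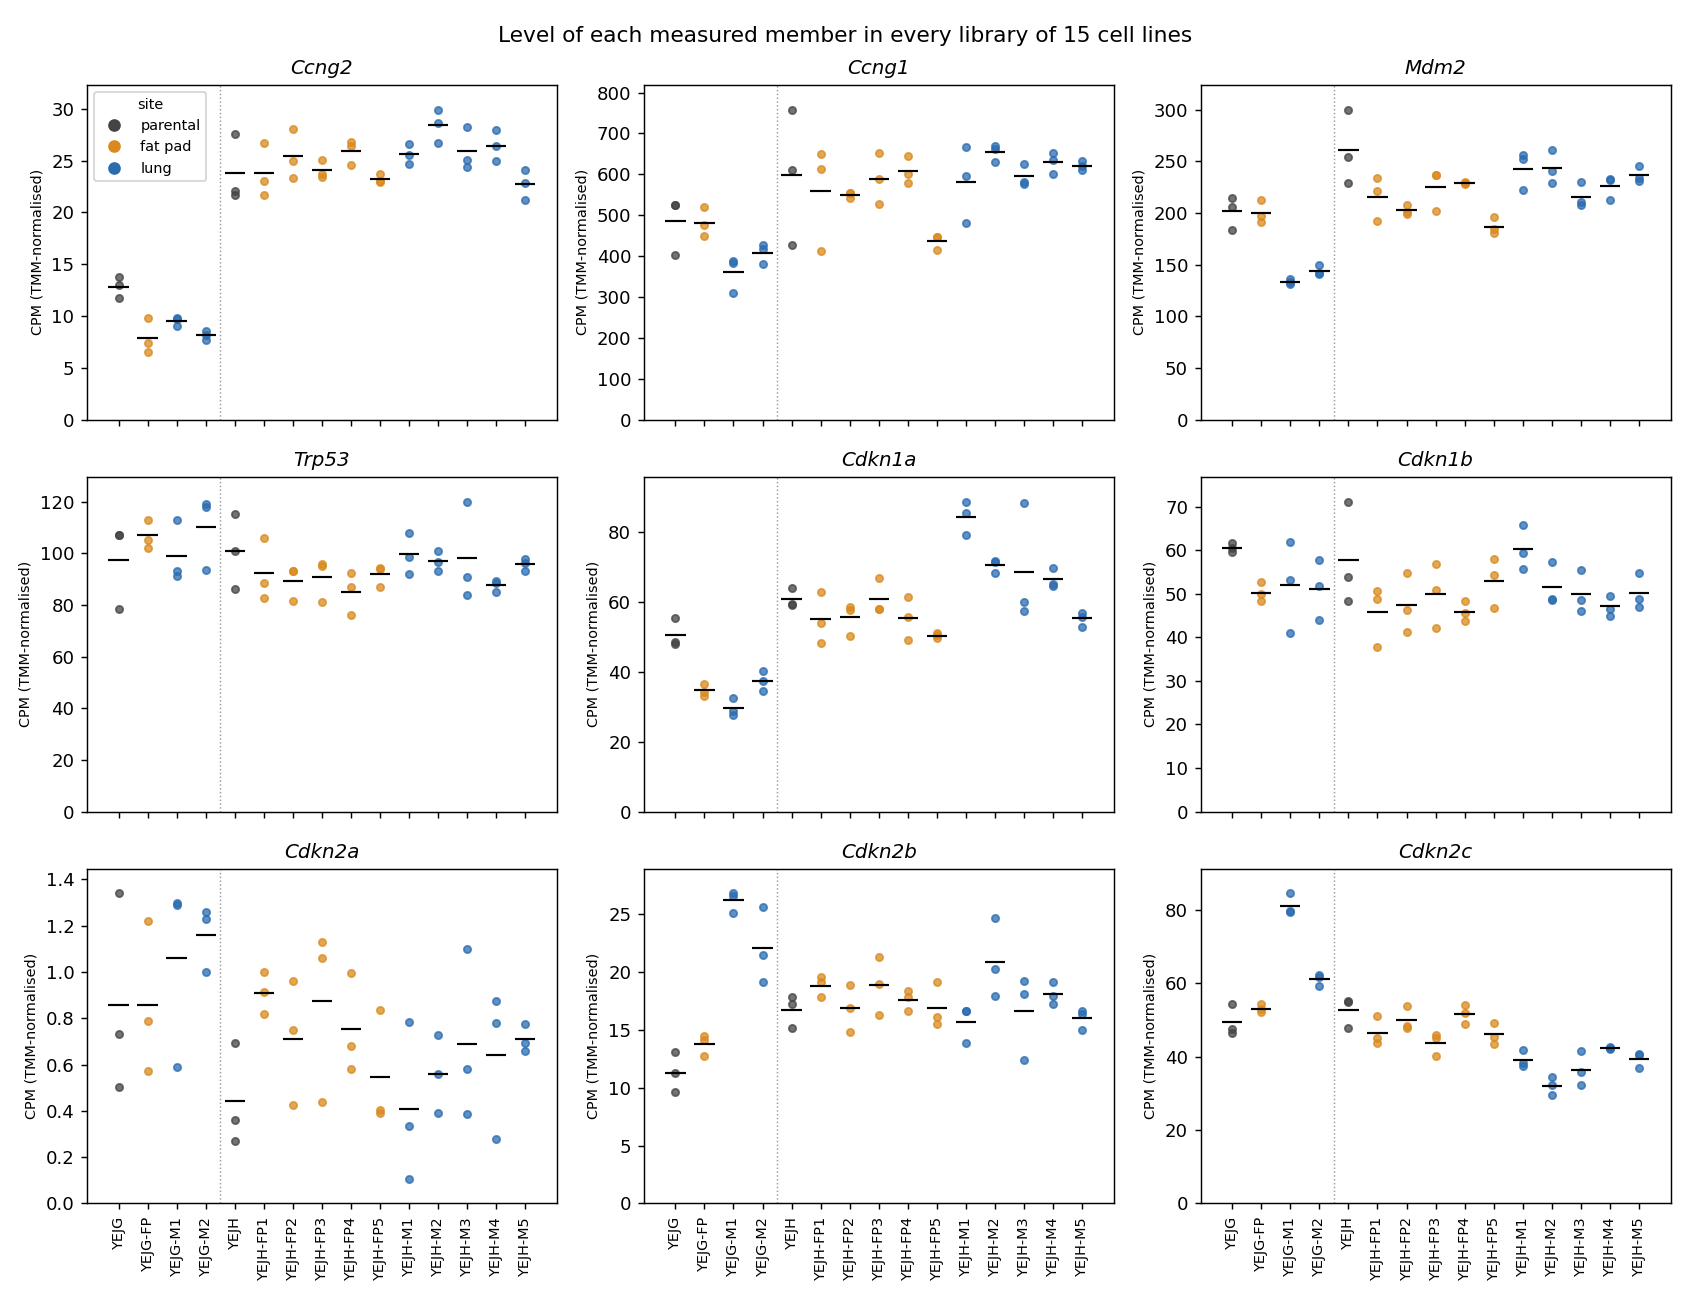
TMM-normalised CPM (vertical axes, starting at 0) of the 9 members with reads, in each of 45 libraries (points) of 15 lines (horizontal axis), coloured by site; bars are line means and the dotted line divides YEJG from YEJH lines. *Ccng2* lies between 6.49 and 13.8 CPM in YEJG libraries and between 21.2 and 29.9 CPM in YEJH libraries.

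Compared per kilobase of exon, the level of *Ccng1* was the highest of the members, with a mean over 15 lines of 124 CPM per kb. *Mdm2* followed at 27.4 CPM per kb. *Trp53* at 13, *Cdkn1b* at 11.3, *Cdkn1a* at 9.22, *Cdkn2c* at 7.60 and *Cdkn2b* at 6.53 CPM per kb formed a middle range. *Ccng2* at 3.56 and *Cdkn2a* at 0.636 CPM per kb were the lowest of the 9. *Cdkn2a* had between 1 and 21 reads per library, and its repeats had an SD of 0.35 on the log2 scale, against 0.10 to 0.18 for the other 8 members.

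**Figure D2:**
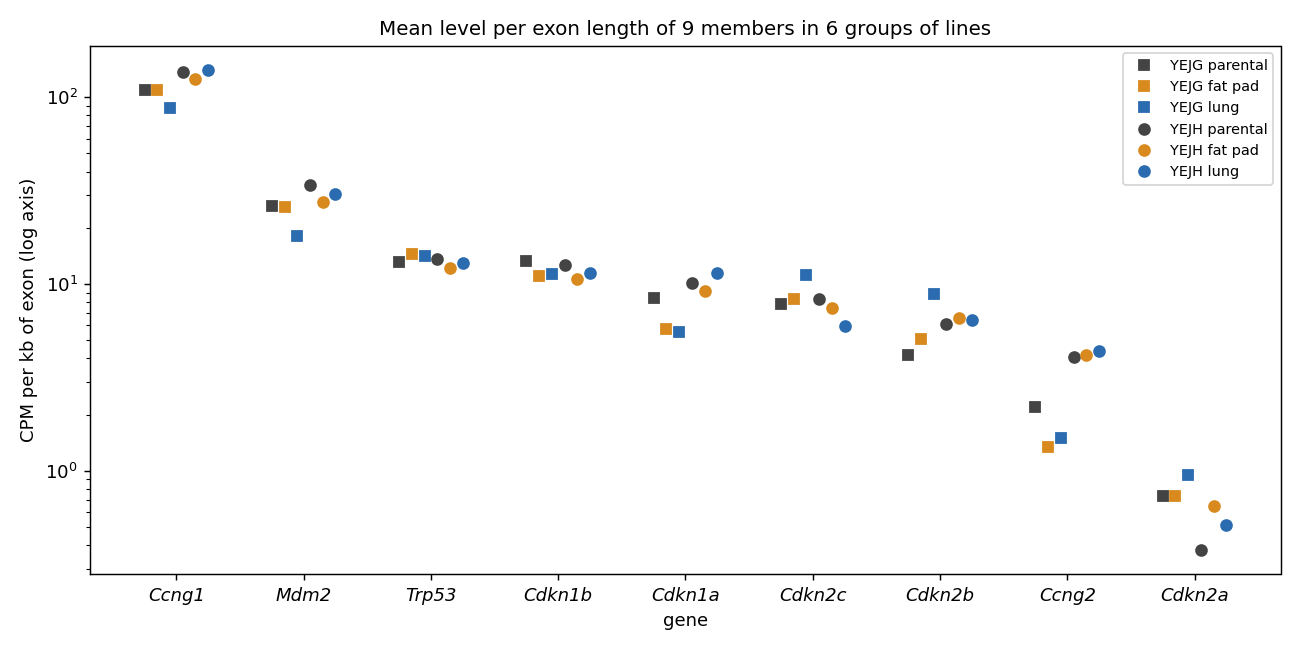
Mean level per exon length (vertical axis, CPM per kb, log axis) of 9 members (horizontal axis, ordered by their mean over 15 lines) in 6 groups of lines; squares are YEJG groups, circles are YEJH groups and colours are sites. *Ccng1* lies between 87.4 and 140 CPM per kb and *Cdkn2a* at or below 0.948 CPM per kb.

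The level of *Ccng2* was lower in YEJG lines than in YEJH lines before and after passage through mice. In the parental line YEJG its 3 libraries held 13, 11.7 and 13.8 CPM, and in the parental line YEJH they held 22.1, 21.7 and 27.6 CPM. The libraries of the parental lines did not overlap. *Ccng2* was thus 1.88-fold lower in YEJG (log2 fold change -0.91, SE 0.15, adjusted p = 0.00522 by the quasi-likelihood test of edgeR, 1 line per group). The parental lines were not in the contrast that led to the choice, but the derived lines in that contrast descend from them. The spread was also pooled from the derived lines, so this p is no independent test of the choice. *Ccng2* was the 1 member that edgeR called of 9 tested between the parental lines at an adjusted p of 0.05, where 6.65% of all genes tested were called. Its log2 fold change was -0.69 in set A (adjusted p = 0.0357) and -1.15 in set B (adjusted p = 0.00788). *Mdm2* (-0.39) and *Cdkn2b* (-0.57) were not called there by edgeR (adjusted p = 0.104 and 0.0927). Both passed with DESeq2 (adjusted p = 0.0452 for each), which called 1897 of 17110 genes. Both also passed with libraries kept apart in limma-voom (0.0169 and 0.0426), which called 1978 of 14339 genes.

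Among derived lines, *Ccng2* was at 7.45, 6.49 and 9.84 CPM in the libraries of YEJG-FP, at 9, 9.76 and 9.78 CPM in YEJG-M1, and at 8.16, 7.69 and 8.59 CPM in YEJG-M2. The 10 YEJH-derived lines ran from 22.7 CPM in YEJH-M5, through a median of 25.5 CPM, to 28.4 CPM in YEJH-M2. No YEJG line reached the lowest YEJH line. The means were 8.53 ± 0.859 CPM (SD, n = 3 lines) and 25.1 ± 1.72 CPM (SD, n = 10 lines), a log2 difference of -1.60 or 3.04-fold, which chose the members and is not tested. Between the parental and derived YEJG lines the log2 fold change was -0.64 (SE 0.12), and since these derived lines are also those that led to the choice, it is likewise a description. In YEJH the derived and parental lines differed by 0.05 (log2, SE 0.11, adjusted p = 0.879 by edgeR). By site, *Ccng2* had a log2 fold change of 0.06 (SE 0.07, adjusted p = 0.897) between YEJH lung and fat-pad lines and 0.17 (SE 0.14, adjusted p = 0.445) in YEJG. The 5 YEJH fat-pad lines at 24.5 ± 1.16 CPM, the 5 YEJH lung lines at 25.8 ± 2.05 CPM (SD, n = 5 lines each) and the YEJH parental line at 23.8 CPM did not differ beyond their spread.

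The 5 genes whose log2 levels followed *Ccng2* most closely over the 15 lines were *Tbc1d1* (Pearson r = 0.975), *Med12l* (0.969), *Pi4k2b* (0.967), *Nectin3* (0.965) and *Trem5* (0.964). The lines fall into 2 origins and share parents, so these values include the step between YEJG and YEJH. *Tbc1d1* and *Pi4k2b* lie on chromosome 5, as does *Ccng2* (GRCm39 chromosome 5, 93415116 to 93424095, + strand). The 70 tested genes within 5 Mb of *Ccng2* had a median log2 fold change of -0.02 between the parental lines and -0.07 between the derived lines, so the difference in *Ccng2* was not shared by the median of its neighbours.

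The other members were set beside *Ccng2* in the contrast that chose them. The line values of YEJG-derived and YEJH-derived lines did not overlap for 3 of 9 members, against 23.2% of all genes tested, and nothing is read from this count. *Cdkn1a*, the gene for p21, averaged 33.9 ± 3.92 CPM (SD, n = 3 lines) in YEJG-derived and 62.3 ± 10.3 CPM (SD, n = 10 lines) in YEJH-derived lines, a log2 difference of -0.87. *Cdkn2c*, the gene for p18INK4c, went the other way, with 65.1 ± 14.5 and 42.8 ± 6.10 CPM (log2 difference 0.53). *Ccng1* and *Mdm2* had log2 differences of -0.44 and -0.43, with overlapping lines. *Trp53* itself had a log2 difference of 0.18, from 105 ± 5.72 CPM in YEJG-derived to 92.8 ± 4.82 CPM in YEJH-derived lines. *Cdkn2b* (0.03) and *Cdkn1b* (0.02) had log2 differences near 0, and *Cdkn2a* had 0.52 on a low count.

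*Mdm2* was lower in the lung lines of YEJG than in its fat-pad line. Its level was 213, 197 and 191 CPM in the libraries of YEJG-FP, 131, 136 and 133 CPM in YEJG-M1, and 150, 141 and 142 CPM in YEJG-M2. No library of the lung lines reached the fat-pad line, and the parental line YEJG lay beside the fat-pad line at 184, 206 and 215 CPM. *Mdm2* fell by 0.53 on the log2 scale (SE 0.11, adjusted p = 0.00726 by edgeR, 2 lung lines and 1 fat-pad line). Without YEJG-M1 the change was -0.45 with an adjusted p of 0.0519, so it did not pass without that line. The change was -0.44 in set A (adjusted p = 0.0406) and -0.60 in set B (adjusted p = 0.00672). In YEJH the fat-pad lines FP1 to FP5 held 216, 203, 225, 229 and 187 CPM and the lung lines M1 to M5 held 243, 244, 216, 226 and 237 CPM. These groups overlapped, and the log2 fold change of 0.13 (SE 0.06) had an unadjusted p of 0.0426 and an adjusted p of 0.733 by edgeR. The lung versus fat-pad change differed between the origins by -0.66 (log2, SE 0.13, adjusted p = 0.00544).

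*Cdkn2b*, which encodes p15INK4b, rose in the same YEJG lung lines. It was at 12.7, 14.5 and 14.1 CPM in the libraries of YEJG-FP, 25.1, 26.6 and 26.8 CPM in YEJG-M1, and 19.1, 21.5 and 25.6 CPM in YEJG-M2. All 6 lung libraries were above the fat-pad line, and the parental line YEJG was lower still, at 11.3, 13.1 and 9.65 CPM. The change was 1.76-fold (log2 fold change 0.82, SE 0.16, adjusted p = 0.00507 by edgeR), with log2 fold changes of 0.70 in set A (adjusted p = 0.0475) and 0.99 in set B (adjusted p = 0.00133). *Cdkn2b* and *Mdm2* were the 2 members called of 9 tested between YEJG lung and fat-pad lines, where 17.1% of all genes were called. In YEJH, *Cdkn2b* was at 17.8 ± 0.986 CPM in fat-pad and 17.5 ± 2.16 CPM in lung lines (SD, n = 5 lines each). The difference between the origins was 0.85 (log2, SE 0.18, adjusted p = 0.00948), with 0.58 in set A (adjusted p = 0.145) and 1.17 in set B (adjusted p = 0.00139), so that in set A alone it did not pass.

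*Cdkn2c* differed in its response between the origins. It was at 53, 54.3 and 52.1 CPM in the libraries of YEJG-FP, 79.4, 84.6 and 79.7 CPM in YEJG-M1, and 59.2, 62.3 and 61.8 CPM in YEJG-M2. All lung libraries were above the fat-pad line, with YEJG-M1 well above YEJG-M2. In YEJH the fat-pad lines FP1 to FP5 were at 46.6, 50.0, 43.8, 51.6 and 46.1 CPM and the lung lines M1 to M5 at 39.1, 32.1, 36.5, 42.3 and 39.3 CPM. No YEJH lung line reached the lowest YEJH fat-pad line. Neither site comparison passed on its own in edgeR with all lines and libraries. The log2 fold changes were 0.43 in YEJG (SE 0.17, adjusted p = 0.11) and -0.33 in YEJH (SE 0.09, unadjusted p = 0.00226, adjusted p = 0.352). The difference between them was 0.76 (SE 0.19, adjusted p = 0.0206), and without YEJG-M1 it was 0.57 with an adjusted p of 0.0728. With *Mdm2* and *Cdkn2b* this made 3 members called of 9 for the difference between origins, where 13.2% of all genes were called. The difference for *Cdkn2c* was 0.81 in set A (adjusted p = 0.0193) and 0.78 in set B (adjusted p = 0.0306). With libraries kept apart in limma-voom, both site comparisons of *Cdkn2c* passed (adjusted p = 0.00476 in YEJG and 0.000708 in YEJH). Of 14339 genes, that fit called 3980 between YEJG sites and 341 between YEJH sites. Without YEJG-M2 the edgeR log2 fold change of *Cdkn2c* between YEJG sites was 0.61.

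No member was called between the 5 lung and 5 fat-pad lines of YEJH with edgeR, where 0.0117% of all genes (2 genes) were called and 3 of the 9 members had an unadjusted p under 0.05. Of these, *Cdkn1a* was at 55.1, 55.6, 61.0, 55.4 and 50.4 CPM in FP1 to FP5 and at 84.5, 70.5, 68.6, 66.5 and 55.3 CPM in M1 to M5. The highest value was that of YEJH-M1, and M5 lay within the range of the fat-pad lines. The log2 fold change of *Cdkn1a* was 0.30 (SE 0.10, unadjusted p = 0.0108, adjusted p = 0.498). With libraries kept apart in limma-voom, where 341 of 14339 genes were called, *Cdkn1a* (adjusted p = 0.0148) and *Cdkn2c* (adjusted p = 0.000708) passed. DESeq2 called 81 genes and 0 members. YEJH-M3 repeat 2, the library with most reads outside genes, held the highest *Cdkn1a* level of its line, 88.5 CPM against 57.4 CPM in the lowest.

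**Figure D3:**
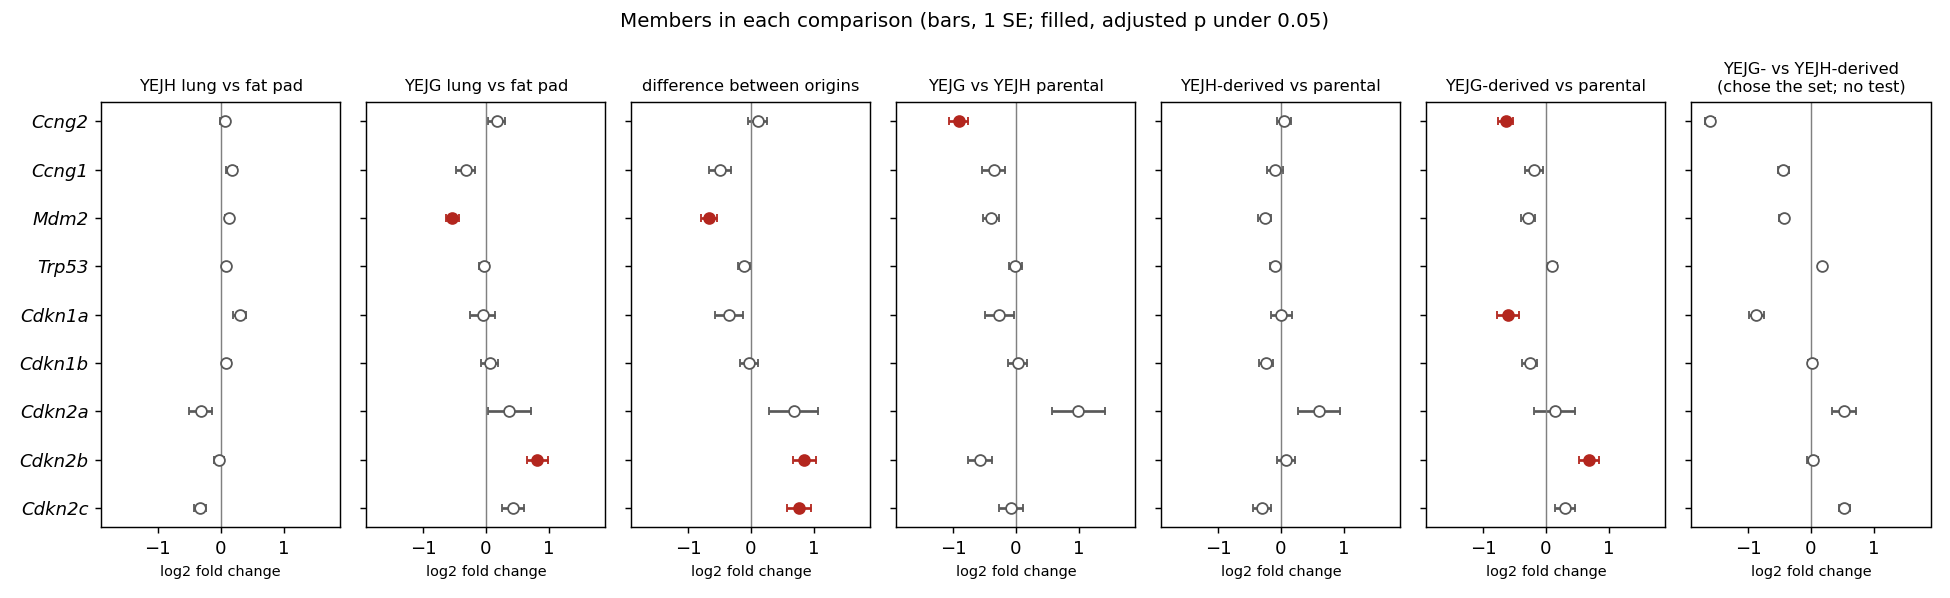
Log2 fold changes (horizontal axes) of 9 members (rows) in 7 comparisons of lines, with 1 SE as bars; filled points passed at an adjusted p of 0.05 (edgeR). The last panel shows the contrast that chose the members and carries no test, and the filled *Ccng2* point of the YEJG-derived lines against their parental line is likewise a description. *Mdm2* falls and *Cdkn2b* rises between YEJG lung and fat-pad lines, whereas no point is filled for YEJH.

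Against their own parental line, *Cdkn1a* and *Cdkn2b* were called in the YEJG-derived lines, where 17.7% of all genes were called, and 0 of 9 members in the YEJH-derived lines, where 2.65% of all genes (453 genes) were called by edgeR and 2 members had an unadjusted p under 0.05 (0 called by DESeq2 and 1 by limma-voom). The *Ccng2* levels of the derived YEJG lines led to the choice of members, so its log2 fold change there, -0.64 over all libraries and -0.51 in set B alone, is a description. *Cdkn1a* was at 48.7, 48.1 and 55.4 CPM in the libraries of the parental line YEJG, against line means of 34.7 CPM in YEJG-FP, 29.7 CPM in YEJG-M1 and 37.4 CPM in YEJG-M2. No derived library, the highest being 40.3 CPM, reached the parental line. Its log2 fold change was -0.60 (SE 0.18, adjusted p = 0.042), but it did not pass in 14 of 25 alternatives, where the adjusted p reached 0.21. *Cdkn2b* had a log2 fold change of 0.68 (SE 0.16, adjusted p = 0.0114), with an adjusted p of 0.066 in set B alone and 0.0575 without repeat 3. The YEJG-FP line, at 13.8 CPM, stood closer to the parental level of 11.3 CPM than the lung lines did.

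With all libraries and lines, edgeR called *Trp53*, *Cdkn1b*, *Cdkn2a* and *Ccng1* in none of the 6 comparisons tested. *Trp53* had a log2 fold change of 0.40 between YEJG-derived and YEJG parental libraries in set B alone (adjusted p = 0.0379), but 0.00 in set A alone. *Trp53* had line means from 85.1 CPM in YEJH-FP4 to 110 CPM in YEJG-M2. *Cdkn1b*, the gene for p27, ran from 45.8 CPM in YEJH-FP1 to 60.6 CPM in YEJG. Among the 9 members these were the narrowest ranges relative to the level. *Ccng1* ran from 361 CPM in YEJG-M1 to 654 CPM in YEJH-M2, and its change between sites differed between origins by -0.49 (log2, SE 0.17, unadjusted p = 0.0136, adjusted p = 0.0789). That difference of *Ccng1* passed with DESeq2, which called 4 members and 2920 of 17110 genes there. It passed with libraries kept apart in limma-voom, which called 4 members and 3517 of 14339 genes. It also passed with edgeR when YEJH-FP5 was left out (-0.38, adjusted p = 0.0296). Without YEJH-FP5 its change between YEJG sites passed as well (-0.30, adjusted p = 0.0385). *Cdkn2a* had line means from 0.408 CPM in YEJH-M1 to 1.16 CPM in YEJG-M2. On GRCm39, exons of *Trp53* share 263 bases with the antisense gene *Wrap53*, and exons of *Cdkn1a* share 504 bases with *Dino*. Exons of *Ccng1* share 114 bases with *Nudcd2*. Exons of *Mdm2*, *Cdkn1b*, *Cdkn1c* and *Cdkn2c* also share bases with antisense genes, and *Trp53* and *Cdkn1a* each overlap a further one. The largest overlap is that of *Cdkn1c* with *Gm44732*. The library kit does not mark strand, so reads in shared bases cannot be told apart. The counts hold a class of reads set aside as ambiguous, and its part in the levels of members was not tested.

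Across the 15 lines the log2 levels of *Mdm2* and *Ccng1* followed each other closely (Pearson r = 0.94), and within the 10 YEJH-derived lines r was 0.87. *Cdkn1a* followed *Mdm2* at r = 0.84 over 15 lines and 0.68 within the 10 YEJH-derived lines. *Trp53* did not follow its target *Mdm2* in this way, with r = -0.37 over 15 lines and 0.32 within the 10. The values are descriptions, since lines of one origin share a parent and the libraries share 2 sets. The genes most like *Ccng1* were *Sesn2* (r = 0.941), which encodes a sestrin and is among the p53 targets listed here, and *Mdm2* (r = 0.938).

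A list of 30 other genes reported as p53 targets was read from the same fits, and all 30 were tested. Between YEJG lung and fat-pad lines 10 fell and 3 rose, where 17.1% of all genes were called, with a median log2 fold change of -0.36, against -0.01 over all genes. *Perp*, a desmosome and cell death gene, fell from 328 CPM in YEJG-FP to 224 CPM in YEJG-M1 and 199 CPM in YEJG-M2 (log2 fold change -0.63, SE 0.09, adjusted p = 0.000532). *Plk2*, a stress-induced kinase gene, was at 778 CPM in YEJG-FP and at 518 and 503 CPM in the lung lines (-0.61, SE 0.09, adjusted p = 0.0011). For *Plk2*, YEJG-FP was the highest of all lines, and the parental line YEJG lay between it and the lung lines, at 640 CPM. *Tnfrsf10b*, a death receptor gene, fell by 0.60 (adjusted p = 0.00193) and *Ddb2*, a DNA repair gene, fell by 0.84 on the log2 scale (adjusted p = 0.00219). The 3 that rose were *Fas* (log2 fold change 1.52), *Sesn1* (0.95) and *Ptprv* (3.34). *Ptprv* had 0.288 CPM in YEJG-FP, so its change rests on few reads.

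In YEJH, where 0.0117% of all genes were called, 0 of the 30 p53 targets passed between lung and fat-pad lines in edgeR (3 at an unadjusted p under 0.05), DESeq2 or limma-voom, with a median of 0.07 against 0.01 over all genes. The difference between the origins passed for 12 of the 30, 9 lower and 3 higher in YEJG, against 13.2% of all genes called, with a median of -0.45. Between the parental lines, where 6.65% of all genes were called, 3 fell and 0 rose: *Bbc3* (log2 fold change -1.29, SE 0.26, adjusted p = 0.0122), *Trp53inp1* (-1.53, SE 0.32, adjusted p = 0.0147) and *Polk* (-0.48, SE 0.10, adjusted p = 0.0164) were lower in YEJG. *Perp* was the 1 of 30 lower in YEJH-derived than in YEJH parental cells (-0.38, SE 0.07, adjusted p = 0.0176), where 2.65% of all genes were called. In YEJG 8 of 30 were lower and 3 higher than in the parental line, against 17.7% of all genes called. The list was drawn up with earlier results of these data known, and its counts are a description.

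**Figure D4:**
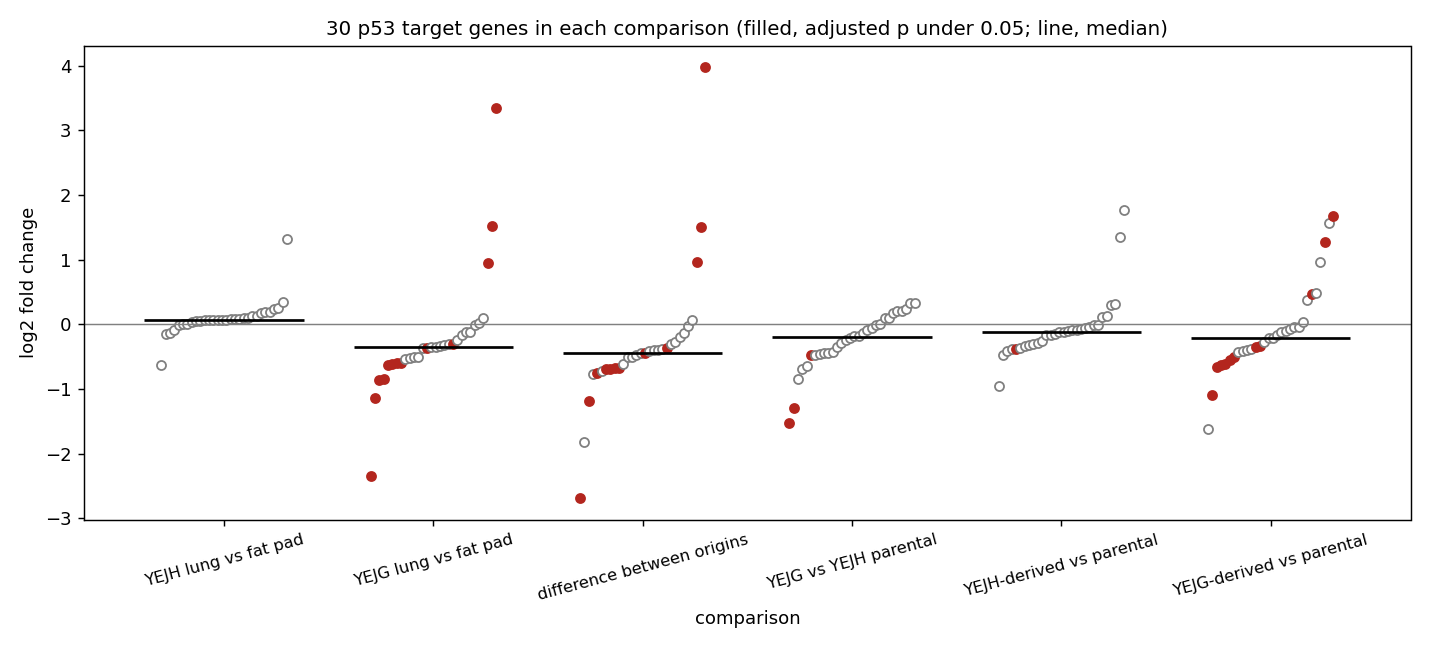
Log2 fold changes (vertical axis) of 30 p53 target genes, sorted within each of 6 comparisons (horizontal axis); filled points have an adjusted p under 0.05 and lines are medians. The median is -0.36 for YEJG lung against fat-pad lines and 0.07 for YEJH.

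Among 15 tested regulators and relatives of p53, the DNA damage kinase gene *Atm* was the 1 that rose in YEJG lung lines against the YEJG fat-pad line (log2 fold change 0.37, SE 0.10, adjusted p = 0.026), where 17.1% of all genes were called. Against the YEJG parental line, *Atr* (0.74, adjusted p = 0.000468), *Atm* (0.60, adjusted p = 0.00132) and *Rchy1* (0.21, adjusted p = 0.0486), a further p53 ubiquitin ligase gene, rose in the YEJG-derived lines, against 17.7% of all genes called. For the difference between origins 0 of the 15 passed in edgeR (4 at an unadjusted p under 0.05), 2 in DESeq2 and 1 in limma-voom. Between the parental lines 0 of the 15 passed in edgeR (0 at an unadjusted p under 0.05) or the other tools, and between the YEJH sites 0 of the 15 passed in edgeR (1 at an unadjusted p under 0.05) or the other tools.

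Of 18 tested CDKs, cyclins, pocket proteins and related genes, 2 rose and 2 fell between YEJG lung and fat-pad lines, where 17.1% of all genes were called. *Cdkn2d*, the remaining INK4 gene, rose (log2 fold change 0.90, SE 0.13, adjusted p = 0.000698). It was at 10.7 CPM in YEJG-FP, the lowest of all lines, and at 19.8 and 19.6 CPM in the lung lines. The parental line YEJG was at 16.2 CPM, nearer to the lung lines than to YEJG-FP. *Cdkn2d* had a difference between origins of 1.11 (SE 0.14, adjusted p = 0.00061). *Skp2*, whose product marks p27 for destruction, fell by 0.46 (adjusted p = 0.00797) while *Cdkn1b* had a log2 fold change of 0.06. *Skp2* was at 91.3 CPM in YEJG-FP, the highest of all lines, and at 70.5 and 61.9 CPM in the lung lines. The parental line YEJG was at 59.5 CPM, so the lung lines were not below it. *Cdk4*, the kinase bound by INK4 proteins, rose by 0.31 (adjusted p = 0.0224), and *E2f3* fell by 0.32 (adjusted p = 0.0261). Between the parental lines 0 of the 18 passed in edgeR (6 at an unadjusted p under 0.05), 1 in DESeq2 and 2 in limma-voom. Between the YEJH sites 0 of the 18 passed in edgeR (2 at an unadjusted p under 0.05), 0 in DESeq2 and 1 in limma-voom. Against the YEJG parental line the genes drawn from this list had log2 fold changes of 0.37 (*Skp2*), 0.38 (*Rbl2*), -0.22 (*Ccnd3*) and -0.43 (*Ccnd1*).

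FoxO factors and targets were read because *Ccng2* is one of them. Of 16 tested, 2 were higher and 2 lower in YEJG than in YEJH parental cells, where 6.65% of all genes were called, with a median of -0.28 against -0.02 over all genes. *Sod2* (log2 fold change 0.44, adjusted p = 0.00768) and *Klf4* (0.99, adjusted p = 0.0467) were higher, while *Bcl6* (-0.46, adjusted p = 0.0371) and *Insr* (-0.63, adjusted p = 0.0421) were lower. Between YEJG lung and fat-pad lines 3 rose and 1 fell, where 17.1% of all genes were called: *Pik3ip1* (2.12, adjusted p = 0.00137), *Irs2* (0.91, adjusted p = 0.00206) and *Bcl2l11* (1.25, adjusted p = 0.00711) rose, and *Foxo3* (-0.35, adjusted p = 0.0218) fell. *Ccng2* itself had a log2 fold change of 0.17 there, as given above. Against the YEJG parental line the genes drawn from this list had log2 fold changes of 1.09 (*Sesn3*), 0.7 (*Irs2*), -0.76 (*Txnip*) and 1.14 (*Pik3ip1*). For the difference between origins they were *Pik3ip1* (2.3), *Foxo3* (-0.46), *Irs2* (0.68) and *Bcl2l11* (1.06). *Bcl6* (-0.35) was drawn in YEJH-derived against parental lines. Between the YEJH sites 0 of the 16 passed in edgeR (4 at an unadjusted p under 0.05), DESeq2 or limma-voom.

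*Cdkn2a* and *Cdkn2b* lie side by side on chromosome 4. Of 5 tested genes beside them, 2 passed in edgeR in the YEJG-derived against YEJG parental lines, where *Hacd4* (log2 fold change 4.13, SE 0.76, adjusted p = 0.00261) and *Elavl2* (4.26, SE 1.17, adjusted p = 0.0249) rose, as did *Cdkn2b*. In the other comparisons 0 of the 5 passed in edgeR, with at most 1 at an unadjusted p under 0.05 and at most 1 called by DESeq2 or limma-voom in each. Both started from very low levels, 0.157 CPM for *Hacd4* and 0.0247 CPM for *Elavl2* in the parental line. *Hacd4* reached 6.86 CPM in YEJG-M1, 3.02 CPM in YEJG-M2 and 1.65 CPM in YEJG-FP.

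Markers of cell state moved with the YEJG lung lines, in which *Mdm2* and most called p53 targets were low and *Cdkn2b* was high. The 10 luminal markers summed to 2780 to 3150 CPM in the YEJG lung lines and to 4160 to 7280 CPM in the other lines, with 8 of 10 over 1 CPM in every group. The 4 basal markers summed to 137 to 149 CPM there, against 209 to 1370 CPM elsewhere, almost all of it *Krt14*. The 5 fibroblast markers summed to 13.3 to 51.1 CPM in YEJG lung lines and at most 6.05 CPM elsewhere, of which *Pdgfra* made up to 42.1 CPM, while *Lum* was at 0 in every line. Leukocyte markers summed to 2.37 to 6.85 CPM over all lines, with *Cd3e* and *Ms4a1* at 0. Lung epithelial markers stayed at or below 0.432 CPM, with *Sftpc* and *Sftpb* at 0, and endothelial markers at or below 0.749 CPM. The part of the luminal, basal and fibroblast markers in the results for YEJG lung lines was not tested. In bulk RNA, fewer cells of a kind and less RNA per cell cannot be told apart.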

How the data were processed

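RNA from 15 mouse cell lines, 3 libraries each, was read from 1 deposited table of counts per gene. Per the labels, the authors used polyA RNA, a TruSeq v2 kit and a NextSeq500; the submitters' notes name FastQC, HISAT2, SAMtools 1.2 and HTSeq, and a human build (GRCh38) although the identifiers are of mouse genes. The authors deposited raw counts, not normalised. Of 54838 identifiers, 92.6% matched GRCm39, used here for names, positions and exon lengths. Reads outside genes were left out of library sizes.

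Counts were summed over the 3 libraries of a line. edgeR 4.0.16 (R 4.3.3) fitted all 15 lines in 6 groups of origin and site, with TMM normalisation, filterByExpr (17110 genes) and the quasi-likelihood test; p-values were adjusted by Benjamini-Hochberg over all genes, with a threshold of 0.05. DESeq2 1.42.0 and limma-voom (limma 3.58.1) served as alternatives. Python 3.11.15 and matplotlib 3.10.9 served for motifs and figures. The fits were tested on simulated data. Counts were drawn with edgeR's own estimates of spread, the same mean in every group apart from the changed genes, and no effect of set. The changed genes came only from those with a positive average log2 CPM, so the shares do not cover lower genes such as *Cdkn2a*. Of genes changed 1.5-fold, 79.1% were called between YEJH sites, 20.9% between YEJG sites and 20.9% between parental lines. At 2-fold these shares were 89.6%, 68.7% and 67.2%. False calls were 11, 5 and 6 among 17110 genes. A gene that was not called can therefore still differ. Total counts bound the precision of low genes, and the number of lines that of the comparisons.

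The members and lists were chosen with earlier results of these data known. The genes named were the 10 members and genes drawn by fixed rules. From each list, per comparison, up to 4 genes with an adjusted p under 0.05 and the smallest p were drawn. The genes with the highest Pearson correlation with a member were drawn too (5 for *Ccng2*, 2 for the others). Not every gene so drawn is named in the text. *Fas* and the listed *Sesn1* and *Ptprv* were named as the 3 targets that rose, after their values were seen. The labels tie a repeat number to no shared culture or day, so the numbers were not treated as pairing the libraries. Deviations of libraries of the same number correlated between 0.298 and 0.847 within a set and between -0.847 and -0.067 across sets. The sign of these values goes with the set, so they cannot decide whether the numbers pair libraries.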

Additional observations from a re-analysis of the deposited data

Results flagged for a closer look

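The lung versus fat-pad change differed between YEJG and YEJH for 3 of the 9 members tested, by the test of the difference itself (edgeR's quasi-likelihood test over 15 lines), against 13.2% of all genes called. The YEJG change minus the YEJH change was -0.66 on the log2 scale for *Mdm2* (adjusted p = 0.00544), 0.85 for *Cdkn2b* (adjusted p = 0.00948) and 0.76 for *Cdkn2c* (adjusted p = 0.0206). *Cdkn2b* did not pass in set A alone (adjusted p = 0.145), nor *Cdkn2c* without YEJG-M1 (adjusted p = 0.0728). The YEJG side rests on 2 lung lines and 1 fat-pad line. For each member, the lines within the groups of 5 were checked for one far from the others; 18 groups were examined and 0 stood apart, where chance gives about 0.9.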

How the results depend on the processing

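Of 27 alternatives, 2 were added after the values were seen (set as a covariate in limma-voom, and the fit without YEJH-M3 replicate 2). Those for YEJH lines alone apply to the YEJH site comparison, which leaves 25 for the others. No member reversed its sign in a called comparison. The log2 fold change of *Ccng2* between the parental lines ran from -1.15 to -0.69 and passed in all 25 alternatives run for it, that of *Cdkn2b* between YEJG sites ran from 0.70 to 0.99 and passed in all 25, and the difference between origins for *Mdm2* ran from -0.73 to -0.58 and passed in all 25. For *Ccng2*, many of these alternatives left out a derived line, which leaves the counts of the parental lines as they were. Neither parental line could be left out. *Cdkn1a* in YEJG-derived against parental lines did not pass in 14. The cause of the changes below was not tested.

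With libraries kept apart in limma-voom, which takes the repeats of a line as correlated libraries, genes called rose to 3517 for the difference between origins, 1978 between parental lines, 341 between YEJH sites and 1443 for YEJH-derived against parental lines. Of 14339 genes tested, 3606 were called for YEJG-derived against parental lines. Members called were then 3 between parental lines, 5 in YEJG-derived and 1 in YEJH-derived against parental lines, and 2 between YEJH sites. With repeat number as a replicate block, of the same 14339 genes, 3525 were called for the difference between origins and 1983 (3 members) between parental lines. Between YEJH sites 315 (2 members) were called. Against parental lines 1422 (1 member) were called in YEJH-derived and 3675 (5 members) in YEJG-derived lines. With library set as a covariate, 3546 of 14339 genes were called for the difference between origins and 1942 (2 members) between parental lines. Between YEJH sites 328 (2 members) were called. Against parental lines 1396 (1 member) were called in YEJH-derived and 3600 (5 members) in YEJG-derived lines. DESeq2 called 1897 genes and 3 members between parental lines, 81 genes between YEJH sites and 984 for YEJH-derived against parental lines. With no expression filter, 732 genes were called between parental lines and 4 between YEJH sites. Set A alone gave 371 genes between parental lines, 1 between YEJH sites and 272 for YEJH-derived against parental lines. Set B alone gave 275 for YEJH-derived against parental lines. For YEJG-derived against parental lines, set B alone called 2278 of 15797 genes and 1 member, *Trp53*. There *Cdkn1a* (adjusted p = 0.21), *Cdkn2b* (0.066) and *Ccng2* (0.0795) did not pass. Counts of members for YEJG-derived against parental lines include *Ccng2*, which is a description there. The YEJH-derived lines fitted alone gave 7 genes between sites.

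With a line or a repeat left out in turn, genes called ran from 1921 to 3358 between YEJG sites, from 532 to 1453 between parental lines, from 0 to 37 between YEJH sites (37 without YEJH-M5) and from 190 (without repeat 1) to 978 (without repeat 3) for YEJH-derived against parental lines. Members called ran from 1 (without YEJG-M1) to 3 (without YEJG-M2) between YEJG sites, from 1 to 2 between parental lines and from 1 (without repeat 3) to 3 for YEJG-derived against parental lines. A group left with 1 line is assumed to vary like the others.

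Within a set, deviations of libraries of the same repeat number had a mean r of 0.63, against 0.571 for other numbers, and across sets -0.544 against -0.607. YEJH fat-pad and lung lines of the same number had a mean r of -0.032, against 0.008 for other numbers. With line number as a replicate block, 0 genes were called between YEJH sites (1130 at an unadjusted p under 0.05). *Cdkn2a*, at 1 to 21 reads per library, is limited by depth, and its difference between derived lines moved from 0.52 to 0.30 in set A, 0.79 in set B and 0.29 without repeat 1.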

Other observations

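*Mtap*, the neighbour of *Cdkn2a* and *Cdkn2b* that encodes a methionine salvage enzyme, was lowest in YEJH-M1 among the 15 lines, at 96.2 to 107 CPM over its libraries. The other 9 YEJH-derived lines ran from 186 CPM in YEJH-M5 to 223 CPM in YEJH-FP2, and the parental lines were at 145 CPM (YEJG) and 175 CPM (YEJH). YEJH-M1 also had the lowest line mean of *Cdkn2a* of all 15 lines (0.408 CPM), though its libraries ran from 0.105 to 0.783 CPM and overlapped those of YEJH (0.271 to 0.692 CPM), and the lowest of *Cdkn2b* among the YEJH-derived lines (15.7 CPM), the latter within the spread of its libraries from YEJH-M5 (16 CPM). This gene was singled out after its values were seen, and no test was run.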
